A study of Mus musculus with 24 samples.

Results

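The genes described here encode the subunits of the 26S proteasome. They were taken from a list of 34 symbols, matched to Ensembl identifiers through the GENCODE mouse annotation, out of 54232 genes in the count tables. The list holds 7 alpha ring genes (Psma1 to Psma7), 4 structural beta genes (Psmb1 to Psmb4), 3 constitutive catalytic beta genes (Psmb5, Psmb6, Psmb7) and their 3 immunoproteasome counterparts (Psmb8, Psmb9, Psmb10). It also holds 6 ATPases (Psmc1 to Psmc6), 3 further base subunits (Psmd1, Psmd2, Psmd4) and 8 lid subunits (Psmd3, Psmd6, Psmd7, Psmd8, Psmd11, Psmd12, Psmd13, Psmd14). All 34 passed the filter on low counts.

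Bulk RNA-seq was carried out on the cerebellum of 24 mice at 6 weeks of age. The study asked what the loss of a phosphorylation site, a serine of ATXN1 replaced by alanine in the S776A allele, does in knock-in mice that model spinocerebellar ataxia type 1 (SCA1). The substitution was placed on the expanded allele, on both alleles or in mice without an expansion. WT mice carried Atxn1_2Q/2Q, with 2 glutamines encoded by each allele (n = 8). SCA1 mice carried Atxn1_154Q/2Q, in which 1 allele encodes an expanded glutamine tract (n = 4). SCA1 S776A mice were Atxn1_154Q[S776A]/2Q, with the substitution on the expanded allele only (n = 4). S776A double mice were Atxn1_154Q[S776A]/2Q[S776A], with the substitution on both alleles (n = 4). WT S776A homozygous mice were Atxn1_2Q[S776A]/2Q[S776A], with both alleles substituted and no expansion (n = 4). The mice were on a C57BL/6J background and the substitution was made by CRISPR/Cas9. The allele is in the germline, so every cell type of the cerebellum carried it.

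Each library held between 62163600 and 88430180 fragments on genes. The libraries fell into 2 sets by the share of fragments outside annotated genes, which lay between 9.516% and 12.008% in 16 mice and between 5.234% and 6.31% in 8 mice. These sets are called batch 1 (WT mice 1 to 4 and the SCA1, SCA1 S776A and S776A double mice) and batch 2 (WT mice 5 to 8 and the WT S776A homozygous mice). They were inferred from the counts and are not named in the labels, so each genotype was compared with the 4 WT mice of its own set. Levels are CPM, the counts of a gene scaled to a common library size after TMM normalisation. P-values come from edgeR's quasi-likelihood test over 22502 genes with Benjamini-Hochberg adjustment, with batch in the model. A gene was called at an adjusted p under 0.05, or, by the stricter rule, under 0.01 with a log2 fold change beyond 0.5. Atxn1 itself, the edited gene, was present in every library. It lay between 49.1 and 54.1 CPM in WT mice of batch 1 and between 55.2 and 63.9 CPM in SCA1 mice, a difference that was not called (edgeR adjusted p = 0.4533). Leaving out each mouse in turn, its log2 fold change against WT was 0.1652 to 0.2417 in SCA1 mice. The range was 0.2258 to 0.3179 in SCA1 S776A, 0.2244 to 0.3728 in S776A double and -0.0511 to 0.0678 in WT S776A homozygous mice.

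The 26S proteasome degrades proteins tagged with ubiquitin. Its barrel-shaped 20S core is built of outer alpha rings, which form the gate, and inner beta rings, which carry the proteolytic sites. The 19S cap recognises ubiquitin chains, removes them and unfolds the substrate with a ring of ATPases. Psmb6, Psmb7 and Psmb5 carry the caspase-like, trypsin-like and chymotrypsin-like activities. In immune cells, or under interferon gamma, they can be replaced by Psmb9, Psmb10 and Psmb8. When proteasome capacity falls, the transcription factor NRF1 (encoded by Nfe2l1) raises many subunit genes together through antioxidant response elements. Mutant ATXN1 is itself a proteasome substrate, and it accumulates in nuclear inclusions in SCA1.

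The promoters of some of the genes named below are shown first, with short motifs in capitals. The windows run from 250 bases before to 50 after the annotated start, 5′ to 3′ on the gene's strand, from a RefSeq table of build GRCm38.p6. Psmb5 (chr14:54617946-54618245, minus strand) and Psmb6 (chr11:70525107-70525406, plus strand) are shown for the antioxidant response element core, TGACNNNGC. Psmc4 (chr7:28050043-28050342, minus strand), which had the lowest p among members in SCA1 mice, is shown for GCGC, any 2 bases and GCGC again, the core bound by nuclear respiratory factor 1, which is unrelated to the product of Nfe2l1. Psme1 (chr14:55578244-55578543, plus strand) is not a member. It encodes a subunit of the 11S activator that docks on the 20S core, and it was the only gene of the lists around the proteasome that was called between genotypes. Its capitals mark the interferon element pattern GAAA, any 2 bases and GAAA again.
Psmb5: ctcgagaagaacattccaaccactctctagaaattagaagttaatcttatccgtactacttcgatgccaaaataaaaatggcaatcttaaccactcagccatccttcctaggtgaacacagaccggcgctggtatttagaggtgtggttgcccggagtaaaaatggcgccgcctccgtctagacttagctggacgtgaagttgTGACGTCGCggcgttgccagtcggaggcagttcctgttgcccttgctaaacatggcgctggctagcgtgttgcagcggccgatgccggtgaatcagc
Psmb6: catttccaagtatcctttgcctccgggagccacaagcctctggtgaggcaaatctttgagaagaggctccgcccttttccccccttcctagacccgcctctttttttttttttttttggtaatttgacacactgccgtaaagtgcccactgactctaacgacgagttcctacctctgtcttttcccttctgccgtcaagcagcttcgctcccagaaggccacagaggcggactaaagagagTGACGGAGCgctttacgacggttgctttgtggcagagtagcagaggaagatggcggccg
Psmc4: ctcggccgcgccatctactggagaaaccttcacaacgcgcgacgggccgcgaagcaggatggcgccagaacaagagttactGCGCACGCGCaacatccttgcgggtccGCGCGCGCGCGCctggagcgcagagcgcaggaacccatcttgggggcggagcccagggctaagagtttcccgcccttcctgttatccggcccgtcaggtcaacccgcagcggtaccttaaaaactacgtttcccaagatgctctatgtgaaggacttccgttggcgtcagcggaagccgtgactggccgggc
Psme1: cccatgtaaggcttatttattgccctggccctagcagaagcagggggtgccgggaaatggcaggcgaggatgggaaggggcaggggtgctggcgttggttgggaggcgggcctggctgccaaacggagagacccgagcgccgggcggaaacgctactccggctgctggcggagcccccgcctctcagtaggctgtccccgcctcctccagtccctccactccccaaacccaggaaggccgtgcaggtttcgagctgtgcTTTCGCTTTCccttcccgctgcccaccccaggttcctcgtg
Windows were found for 28 of the 34 members and for 27025 genes in all, and both strands were searched. TGACNNNGC was in 4 of the 28 (14.3%; Psmb5, Psmb6, Psmc6, Psmd12), against 14.0% of all promoters. The nuclear respiratory factor 1 core was in 6 (21.4%; Psma2, Psma3, Psma4, Psmc4, Psmc5, Psmd14), against 7.0%. The CCAAT box was in 11 (39.3%), against 41.1% of all promoters, and the GC box GGGCGG in 16 (57.1%), against 38.2%. The interferon element pattern was in 2 (7.14%; Psmb3, Psmd4), against 3.99%. The nuclear respiratory factor 1 core and the GC box share letters and can overlap. A match describes these letters in this window and nothing about binding.

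In WT cerebellum the 31 constitutive proteasome genes lay between 25.0 and 131 on a length-scaled measure, and the immunoproteasome genes stood below them. Levels are given as CPM per kilobase of the principal transcript, so that genes of different length can be compared. In WT mice of batch 1, Psmc5, an ATPase of the base, was highest, at 131 ± 4.29 CPM per kb (SD, n = 4). The catalytic gene Psmb6 followed at 105 ± 3.15. The lowest constitutive member was the lid gene Psmd11, at 25.0 ± 1.27. The median of the 31 constitutive members was 54.4 CPM per kb.

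By subcomplex, the median levels on the same scale were 73.3 for the non-ATPase base, 71.2 for the ATPase ring, 63.1 for the structural beta genes, 56.3 for the catalytic beta genes, 54.4 for the alpha ring and 45.4 for the lid. This order depends on the length and the counting. With the length of all exons the ATPase ring, at 45.8, stood above the non-ATPase base, at 34.8. The catalytic median of 56.3 is the value of Psmb7, whose count loses fragments to a neighbouring gene. Members of 1 subcomplex did not share 1 transcript level, with 41.9 to 131 per kb of the principal transcript in the ATPase ring. Psmb10 lay at 11.1 ± 0.583, Psmb9 at 0.52 ± 0.0852 and Psmb8 at 0.315 ± 0.0601 CPM per kb. Psmc5 was first and Psmb10, Psmb9 and Psmb8 were the last 3 in both batches, and also when the length of all exons was used. Psmb9 and Psmb8 lay next to each other, and on this scale their ranges over mice did not overlap in batch 1. With the length of all exons their means were closer, at 0.192 and 0.152. Counts that lose fewer fragments to neighbouring genes were 2.53 times as high for Psmb8 and 1.3 times for Psmb9. The order of these 2 genes therefore depends on the counting.

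**Figure D1:**
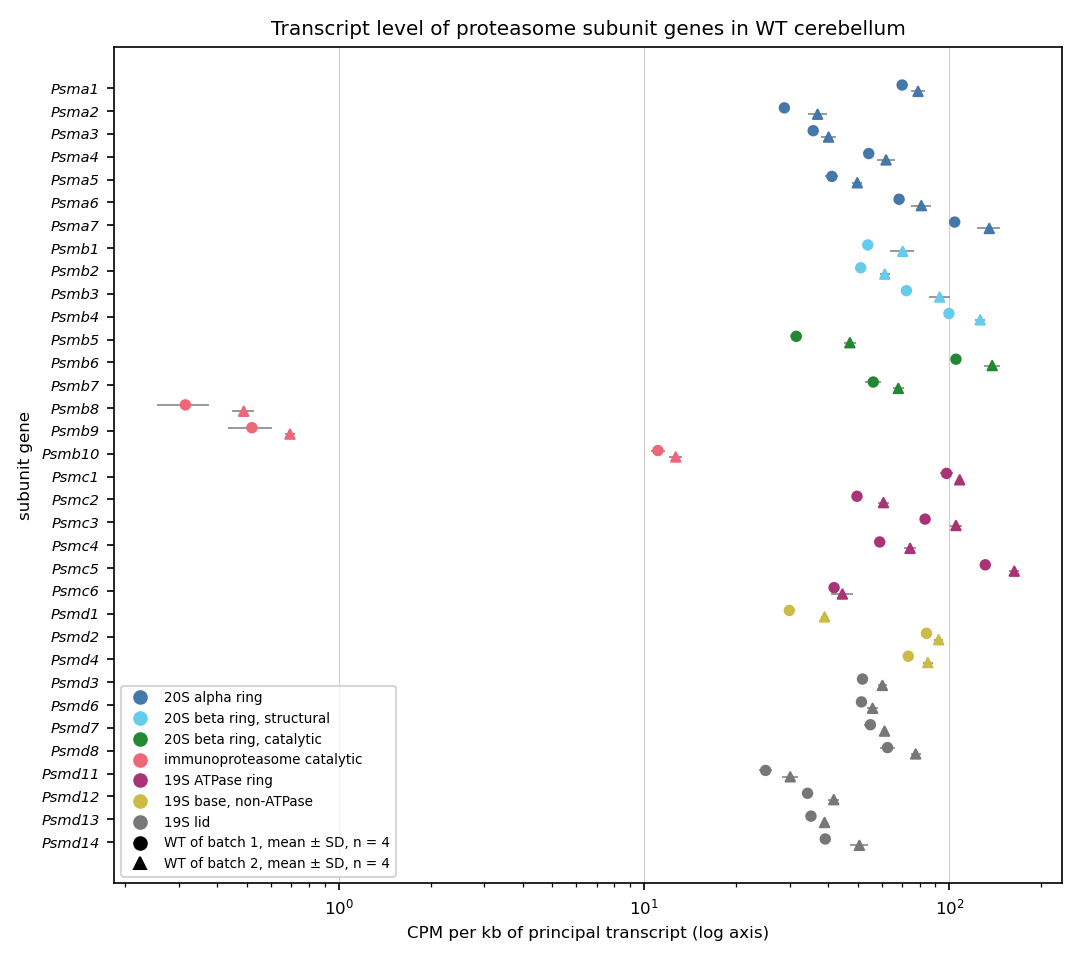
Length-scaled level (CPM per kilobase of the principal transcript, log axis) of the 34 proteasome genes in WT mice, grouped by subcomplex. Circles are means of WT mice of batch 1 and triangles means of WT mice of batch 2, with SD bars (n = 4 each). In batch 1 the 31 constitutive genes lie around their median of 54.4, with Psmc5 highest at 131. Psmb10 (11.1), Psmb9 (0.52) and Psmb8 (0.315) stand apart at the bottom.

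Set against the constitutive subunit that each replaces, the immunoproteasome genes differed among themselves. In WT mice of batch 1, Psmb10 was at 19.8 ± 1.33% of Psmb7 per kilobase (SD, n = 4). Psmb8 was at 1.01 ± 0.22% of Psmb5, and Psmb9 at 0.493 ± 0.0735% of Psmb6. Per kilobase of all exons instead, an alternative chosen after seeing the data, these shares were 44.8%, 0.484% and 0.427%. In WT mice of batch 2 the same shares were 18.7 ± 1.14%, 1.04 ± 0.114% and 0.505 ± 0.049%. Psmb8 rested on 27 to 88 counts per library and Psmb9 on 34 to 92, so their values carry more counting error than those of the other members.

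Fragments that overlap more than 1 gene were discarded in the counts used here, which touches these shares. The strand columns, which discard fewer of them, held together 2.53 times the count of Psmb8, which shares 498 exonic bases with the antisense gene Gm20496. The same ratio was 1.85 for Psmb7, which overlaps Nek6, and 1.30 for Psmb9, which overlaps Tap1. For 29 of the 34 members it was at most 1.1. With the strand columns summed, an added alternative chosen after seeing the data, Psmb8 stood at 2.78% of Psmb5 and Psmb10 at 10.9% of Psmb7. Whether the added fragments came from the member or from its neighbour cannot be told apart.

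In SCA1 mice no proteasome gene passed the test, and most members lay slightly above WT. With edgeR's quasi-likelihood test and Benjamini-Hochberg adjustment, 0 of 34 members were called by either rule, against 0.387% of all genes tested (0.173% by the stricter rule). At an unadjusted p under 0.05, 1 member was higher and 0 were lower, against 3.93% and 4.32% of all genes. The estimate was above 0 for 32 of the 34, the exceptions being Psmd1 and Psmd11, whereas 50.5% of all genes were above 0. The median log2 fold change of the members was 0.06, against 0.001645 over all genes. Under DESeq2 with batch in the model the count called was also 0. Fitted in batch 1 alone, 4 members were higher at an unadjusted p under 0.05, against 5.41% of all genes, and 0 were called.

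The member with the lowest p was Psmc4, an ATPase of the 19S base. It was at 86.7, 84.7, 82.6 and 86.6 CPM in the WT mice of batch 1 and at 89.6, 93.7, 90.7 and 94.6 CPM in the SCA1 mice, so that the groups did not overlap. The log2 fold change was 0.11 ± 0.05 (SE), with an adjusted p of 0.5952 in edgeR's quasi-likelihood test. Psmc2, another ATPase, was at 91.2, 85.4, 87.3 and 91.6 CPM in WT and at 93.6, 95.5, 101 and 95.9 CPM in SCA1 mice. The groups were again separate, and the log2 fold change of 0.12 ± 0.06 was not called (edgeR adjusted p = 0.6601). Psmb8 had the largest estimate, 0.35 ± 0.23. The SCA1 mice were at 0.557, 0.489, 0.613 and 0.949 CPM and the WT mice at 0.446, 0.582, 0.61 and 0.412 CPM, so that the groups overlapped and 1 SCA1 mouse stood above the rest. Its 95% interval ran from -0.11 to 0.81.

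Every SCA1 mouse lay above every WT mouse of its batch for 8 members, against 3.77% of all genes. They were Psma3, Psma6, Psmc2, Psmc4, Psmc5, Psmc6, Psmd12 and Psmd13, hence 4 of the 6 ATPases. No member had every SCA1 mouse below every WT mouse, against 4.99% of all genes. The members move together in each library, so these are not 8 independent observations. The catalytic genes were among those that overlapped. Psmb5 was at 28.1, 26.9, 28.3 and 29.8 CPM in WT and at 28.5, 31.4, 30.4 and 30.6 CPM in SCA1 mice, with a log2 fold change of 0.10 ± 0.08. Psmb6 had 0.08 and Psmb7 had 0.05 on that scale. Across the 31 constitutive members the 95% intervals reached from -0.18 (Psmd11) to 0.29 (Psmc6), which is between 0.88-fold and 1.23-fold of WT.

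By subcomplex, the median log2 fold change in SCA1 mice was 0.10 for the ATPase ring, 0.08 for both the catalytic and the structural beta genes, 0.06 for the alpha ring and the lid, and 0.03 for the non-ATPase base. For the immunoproteasome genes it was 0.15, with standard errors of up to 0.26. A subcomplex that moved apart from the rest was therefore not visible at this spread.

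**Figure D2:**
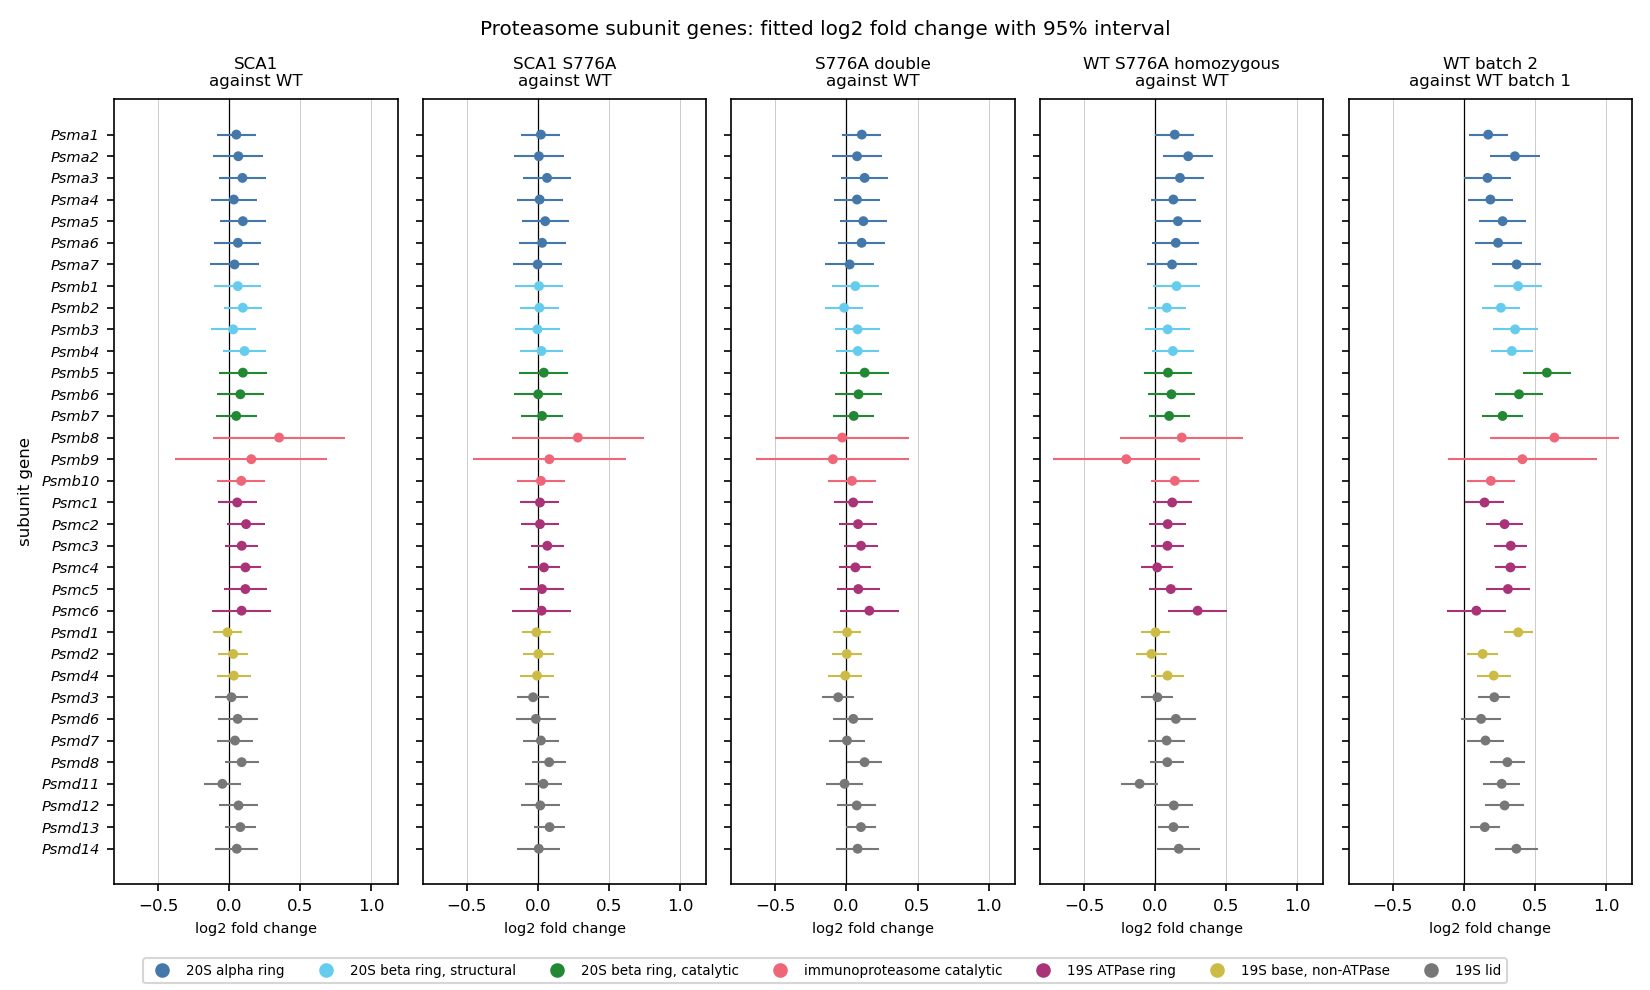
Log2 fold change with its 95% interval for each of the 34 genes, in the 4 genotypes against WT of their own batch and in WT of batch 2 against WT of batch 1 (x axis in log2 units, genes in rows by subcomplex). Most intervals of the 4 genotypes cross 0, with the points slightly right of it, while 27 of 34 genes are called between the WT sets.

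In SCA1 S776A mice no proteasome gene passed the test either, and the median over the members was 0.02 on the log2 scale. No member was called (0 of 34, against 0.0222% of all genes, and 0.0133% by the stricter rule), and 0 were higher or lower at an unadjusted p under 0.05, against 1.98% and 1.95% of all genes. DESeq2 with batch also called 0. The estimate was above 0 for 28 members, against 51.2% of all genes. The member with the lowest p was Psmd13, a lid subunit, at 73.5, 73.7, 72.5 and 76.7 CPM against 69.9, 69.1, 70.5 and 70.5 CPM in WT. It was the only member with every mouse above every WT mouse (1 of 34, against 1.87% of all genes), and 0 were below in every mouse, against 2.52%. Its log2 fold change of 0.08 ± 0.05 was not called (edgeR adjusted p = 0.9998). Psmd8, also of the lid, and Psmb8 followed, with log2 fold changes of 0.08 ± 0.06 and 0.28 ± 0.23. The constitutive members' intervals reached from -0.18 to 0.23.

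In S776A double mice the median SD of single members between mice was 0.083 on the log2 scale, against 0.163 over all genes. In WT mice of batch 1 these values were 0.043 and 0.127. No member was called (0 of 34, against 0.08% of all genes, and 0.0267% by the stricter rule), and DESeq2 with batch called 0. Of the 34, 28 were above 0, against 49.8% of all genes, with a median log2 fold change of 0.07. At an unadjusted p under 0.05, 1 was higher (Psmd8) and 0 were lower, against 3.54% and 3.4% of all genes. Psmd8 was at 105, 93.5, 94.4 and 93.4 CPM in WT and at 98.0, 110, 109 and 105 CPM in the S776A double mice. WT mouse 1 lay apart from the other WT mice there, and the groups overlapped, with a log2 fold change of 0.13 ± 0.06 (edgeR adjusted p = 0.7023). Psmd13 had 0.10 ± 0.05 and Psmc3, an ATPase, 0.10 ± 0.06. In batch 1 alone 6 members were higher at an unadjusted p under 0.05, against 6.23% of all genes, with 0 called. In the joint fit that count was 4 without S776A double mouse 1 (3.65% of all genes), 5 without homozygous mouse 4 (4.94%) and 2 without homozygous mouse 1 (3.67%). It was 0 without S776A double mouse 2, 3 or 4 or WT mouse 2 or 3, where between 2.39% and 3.27% of all genes were higher.

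Every S776A double mouse was above every WT mouse for Psma1, Psma3, Psmc6 and Psmd12 (4 of 34, against 3.56% of all genes), and 0 were below (3.54%). Psmc6, an ATPase, was at 91.5, 94.1, 93.5 and 95.2 CPM in WT and at 109, 107, 102 and 100 CPM in the S776A double mice. Its log2 fold change, 0.16, was the highest among the members in that genotype. For Psmb5, mice 2 and 3 were at 33.1 and 35.3 CPM, mice 1 and 4 at 26.5 and 28.7 CPM, and the WT mice lay between 26.9 and 29.8 CPM. Psmb6 was likewise at 97.9 and 96.7 CPM in mice 2 and 3 and at 77.0 and 84.9 CPM in mice 1 and 4.

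**Figure D3:**
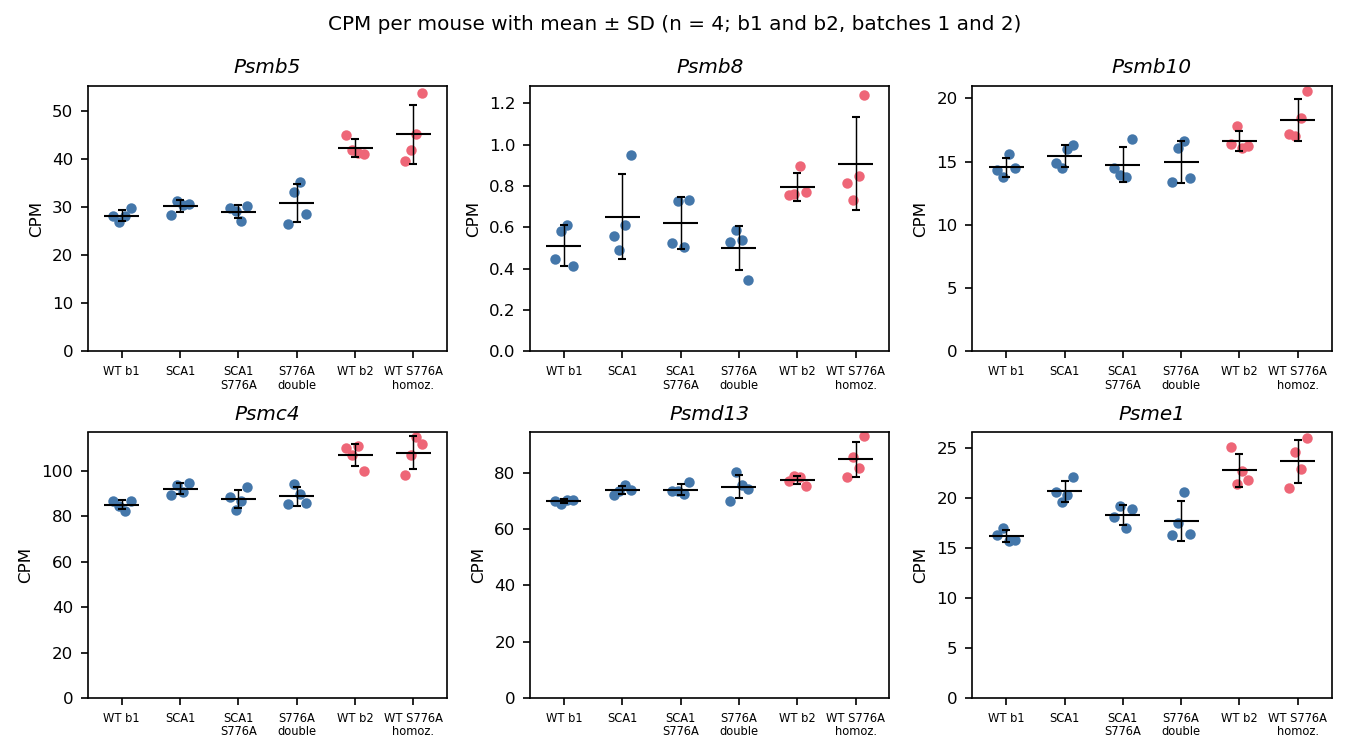
CPM per mouse (points), with the group mean and SD, of Psmb5, Psmb8, Psmb10, Psmc4, Psmd13 and the activator gene Psme1, in the 6 groups of mice with the 2 WT sets kept apart. The 8 mice of batch 2 lie above those of batch 1 for Psmb5, and the SCA1 mice lie above the WT mice of batch 1 for Psmc4, Psmd13 and Psme1.

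The direct comparisons between genotypes of batch 1 also gave no call. For SCA1 S776A against SCA1 mice, 0 of 34 members were called (0.00444% of all genes by either rule) and 0 had an unadjusted p under 0.05 in either direction (2.46% of all genes higher, 1.89% lower). Only 3 of the members were above 0, against 50.1% of all genes, with a median log2 fold change of -0.05. The lowest estimate among the constitutive members was -0.10 for Psmc2 (edgeR adjusted p = 0.9998), and their intervals reached from -0.27 to 0.22. For S776A double against SCA1 mice, 0 were called (0.00444% of all genes, and 0.0% by the stricter rule), 0 had an unadjusted p under 0.05 (1.68% of all genes higher, 1.96% lower), and 19 were above 0 (50.4% of all genes), with a median of 0.00436. DESeq2 with batch called 0 in both. Psmb8 differed most there, with a log2 fold change of -0.38 ± 0.22 (edgeR adjusted p = 1.0). These comparisons share the SCA1 mice with the comparison against WT.

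In WT S776A homozygous mice 7 members had an unadjusted p under 0.05, but none was called and the difference was gone without 1 mouse. No gene of all those tested was called in this comparison (0 of 34 members, against 0.0% by either rule), and DESeq2 with batch called 0 of the members. The 7 were higher: Psma1, Psma2 and Psma3 of the alpha ring, the ATPase Psmc6, and Psmd6, Psmd13 and Psmd14 of the lid, the last being the deubiquitinase that clips the ubiquitin chain. Over all genes 6.57% were higher and 3.41% lower at that threshold. The median log2 fold change was 0.12 and 31 members were above 0, against 53.3% of all genes.

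Psmc6 was at 107, 88.3, 103 and 99.1 CPM in the WT mice of batch 2 and at 99.6, 97.6, 131 and 161 CPM in the homozygous mice. Mice 3 and 4 stood above WT, and mice 1 and 2 lay within the WT range. Its log2 fold change was 0.30 ± 0.10 (edgeR adjusted p = 0.4854). Psma2 was at 118, 101, 109 and 103 CPM in WT and at 106, 112, 128 and 159 CPM in the homozygous mice, with a log2 fold change of 0.23 ± 0.09 and the same adjusted p in edgeR. Psmd13 had 0.13 ± 0.05. No member had every homozygous mouse above every WT mouse of batch 2, against 1.32% of all genes, or below, against 1.34%. The catalytic genes show the same order of mice, with Psmb6 at 104, 110, 119 and 143 CPM and Psmb7 at 74.7, 83.3, 86.3 and 93.6 CPM, against 102 to 118 and 75.2 to 83.0 CPM in WT.

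Without homozygous mouse 4 the members at an unadjusted p under 0.05 went from 7 to 0 and the median log2 fold change from 0.12 to 0.03, with 28 still above 0. The share of all genes higher at that threshold went with it, from 6.57% to 1.07%. Fitted in batch 2 alone, 0 members and 1.84% of all genes were higher. Leaving out homozygous mouse 1 gave 17 such members (10.6% of all genes), mouse 2 gave 12 (10.7%) and mouse 3 gave 3 (4.1%). Without WT mouse 5, 6 or 8 there were 11 (7.32%), 3 (3.39%) and 2 (4.47%). Without any 1 mouse of batch 1 there were between 4 and 6 (5.38% to 6.35%). Homozygous mouse 4 also had the highest share of mitochondrial counts of all libraries. The shares were 3.84%, 4.108%, 4.822% and 6.734% in homozygous mice 1 to 4, and between 3.351% and 4.377% in the WT mice of batch 2. The part of the mitochondrial share in the result was not tested.

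A score per mouse was taken as the mean over the 34 members of the log2 CPM minus the WT mean of the same batch, as a description with no test. The WT mice of batch 1 scored 0.004, -0.033, 0.002 and 0.028. The SCA1 mice scored 0.04, 0.051, 0.105 and 0.09, all 4 above the 4 WT mice, with a mean of 0.072 ± 0.031 (SD, n = 4). In each SCA1 mouse between 27 and 32 of the 34 members were above the WT mean. The SD of the score among the WT mice of batch 1 was 0.025. Of single members the median SD on the log2 scale was 0.043 in these WT mice and 0.055 in the SCA1 mice, against 0.127 and 0.146 over all genes.

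The SCA1 S776A mice scored 0.021, -0.022, -0.017 and 0.131, and the S776A double mice -0.02, 0.14, 0.114 and -0.022. In both, some mice were inside and some above the WT range, and the mean of the SCA1 S776A mice was -0.0061 without mouse 4, against 0.028 with it. The homozygous mice scored -0.059, 0.009, 0.111 and 0.305, against -0.049 to 0.051 in the WT mice of batch 2. Their mean fell from 0.092 to 0.0203 without mouse 4.

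The sign of these scores depended on which WT mice were used. Against the mean of all 8 WT mice, the mean score was -0.0705 in SCA1, -0.114 in SCA1 S776A and -0.0888 in S776A double mice. The WT mice themselves differed by batch. Between WT of batch 2 and WT of batch 1, 27 of 34 members were called higher, against 45.0% of all genes in either direction, and by the stricter rule 1 was called, Psmb5 (17.6% of all genes). At an unadjusted p under 0.05, 31 members were higher and 0 were lower, against 24.5% and 27.4% of all genes. The median log2 fold change was 0.28, and all 34 members were above 0, against 49.6% of all genes. Psmb5 was at 45.1, 42.0, 41.3 and 41.2 CPM in batch 2, with no overlap, a log2 fold change of 0.58 ± 0.08 (1.5-fold) and an edgeR adjusted p of 4.367e-06. Psmd1, the large scaffold subunit of the base, had the lowest p of the members, with 0.38 ± 0.05.

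The shift was uneven across members, from 0.09 for Psmc6 to 0.64 for Psmb8. Medians were 0.39 for the catalytic beta genes, 0.35 for the structural beta genes, 0.30 for the ATPase ring, 0.24 for the alpha ring and the lid and 0.21 for the non-ATPase base. The 7 members not called were Psmc1, Psmc6, Psmd6, Psma3, Psma4, Psmb10 and Psmb9. A difference of this size between WT mice of 1 genotype exceeds each genotype's median, so the genotypes were read only within their batch.

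**Figure D4:**
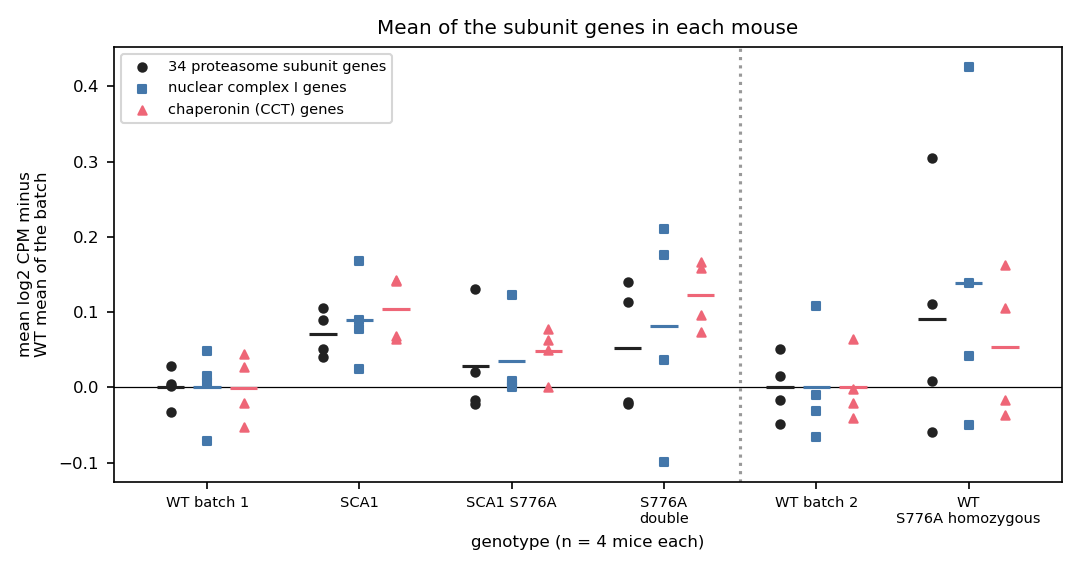
Score per mouse (mean log2 CPM minus the WT mean of the same batch) of the 34 proteasome genes, of 35 nuclear complex I genes and of 8 chaperonin genes, with 1 point per mouse and a bar at each group mean. The SCA1 mice lie between 0.04 and 0.105 for the proteasome, and homozygous mouse 4 is highest for both the proteasome (0.305) and complex I (0.426).

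Genes around the proteasome were taken from lists of its partners. In the comparisons of genotypes, the activator gene Psme1 was the only one of them that was called. It was at 16.3, 17.0, 15.7 and 15.8 CPM in the WT mice of batch 1 and at 20.6, 19.6, 20.3 and 22.1 CPM in the SCA1 mice, and the groups did not overlap. Psme1 rose in SCA1 mice by a log2 fold change of 0.35 ± 0.08, with a 95% interval from 0.19 to 0.51 (edgeR's quasi-likelihood test, Benjamini-Hochberg adjusted p = 0.03655). In this fit the call was at the edge of the threshold, since leaving out any 1 of the 8 SCA1 or WT mice of batch 1 ended it. The edgeR adjusted p was then between 0.0584 and 0.144 and the log2 fold change between 0.307 and 0.3744. Over all the other fits, by edgeR or DESeq2, the adjusted p ran from 2.04e-05 to 0.701.

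In SCA1 S776A mice Psme1 was at 18.1, 19.2, 17.0 and 18.9 CPM and in S776A double mice at 16.3, 17.5, 20.6 and 16.4 CPM. The first range was at or above the highest WT mouse and below the lowest SCA1 mouse, and the second spanned both. The log2 fold changes against WT were 0.18 (edgeR adjusted p = 0.9998) and 0.13 (adjusted p = 0.7752), and neither was called. The direct differences from SCA1 mice were -0.17 (edgeR adjusted p = 0.9998) and -0.22 (adjusted p = 1.0). Both had an unadjusted p under 0.05 and neither was called, so a difference between the genotypes was not shown. Psme2, which encodes the partner of the Psme1 product in the same activator ring, was not called either, at 0.14, 0.11, 0.11 and 0.11 on the log2 scale for the SCA1, SCA1 S776A, S776A double and homozygous groups. Psme1 also differed between the WT sets, by 0.49 (edgeR adjusted p = 1.536e-05).

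The regulator and the supply genes of the proteasome were not called. Nfe2l1, which encodes the transcription factor that raises proteasome genes when capacity is short, was at 262, 251, 258 and 257 CPM in WT and at 233, 252, 228 and 225 CPM in SCA1 mice. Its log2 fold change was -0.13 in SCA1, -0.07 in SCA1 S776A, -0.12 in S776A double and -0.10 in homozygous mice, below 0 while most members were above it. Pomp, the chaperone that assembles the 20S core, had 0.07, 0.01, 0.13 and 0.20 in the same order. Of the 10 genes of transcriptional control, 0 were called in the comparisons with WT, where at most 0.387% of all genes were called. In SCA1 mice 1 was higher (Bach1) and 0 lower at an unadjusted p under 0.05, against 3.93% and 4.32% of all genes.

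Among 15 genes of ubiquitin and delivery to the proteasome, 0 were called, against at most 0.387% of all genes in any comparison with WT. The polyubiquitin gene Ubb had 0.09 on the log2 scale in SCA1 mice. Ubqln4, which encodes a shuttle protein known to bind ATXN1, had -0.08 in SCA1, -0.05 in SCA1 S776A, -0.08 in S776A double and -0.17 in homozygous mice. Ube3a, a ubiquitin ligase, had 0.32 in homozygous mice, where mouse 4 was at 179 CPM and the WT mice of batch 2 were between 93.3 and 106 CPM. Uchl5, a deubiquitinase of the 19S cap, had the lowest p of any gene in these lists there, at 38.0, 38.6, 45.8 and 52.6 CPM against 36.1, 32.6, 35.2 and 36.9 CPM in WT. All 4 homozygous mice were above WT, but the log2 fold change of 0.31 was not called (edgeR adjusted p = 0.4854). The assembly chaperone Psmd10 had 0.25, the glycanase gene Ngly1 0.18 and the glutathione synthesis gene Gclm 0.24 there.

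Other large complexes were taken for comparison. The cytosolic chaperonin, which folds actin and tubulin, is also built of many subunits in fixed ratio. In S776A double mice 6 of its 8 genes were higher at an unadjusted p under 0.05, and in SCA1 mice 3, against 3.54% and 3.93% of all genes. In each, 0 were called, against 0.08% and 0.387% of all genes. Cct6a was at 127, 134, 129 and 128 CPM in the S776A double mice and at 118, 113, 113 and 119 CPM in WT, without overlap (log2 fold change 0.17, edgeR adjusted p = 0.5929). Of 35 nuclear genes of respiratory complex I, 8 were higher in homozygous mice at that threshold, against 6.57% of all genes, and 0 were called. In SCA1 mice all 8 chaperonin genes and 33 of the 35 complex I genes were above 0, with median log2 fold changes of 0.11 and 0.08, beside 0.06 for the proteasome members. An upward estimate in SCA1 mice was thus not particular to the proteasome genes. The complex I score of the homozygous mice was -0.05, 0.042, 0.139 and 0.426, in the same order of mice as the proteasome score. Ndufs4 had the lowest p, with a log2 fold change of 0.28.

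Markers of cerebellar cell types were not called in the SCA1 mice, against 0.387% of all genes, but several had an unadjusted p under 0.05. They included 5 of 6 Purkinje cell markers that were lower, against 4.32% of all genes, with a summed level of 4980 to 5560 CPM against 6560 to 7560 CPM in WT of batch 1. Car8, an early marker of these neurons, was lowest in p, with a log2 fold change of -0.29 (edgeR adjusted p = 0.09599). Of the interneuron markers 3 of 5 were lower at that threshold, and of the oligodendrocyte markers 2 of 5 were higher, against 3.93% of all genes, with a summed level of 6770 to 8320 CPM against 6180 to 7410 CPM. Choroid plexus markers varied between mice, from 20.2 to 5140 CPM in sum across batch 1, and no marker of these 4 lists was at 0. In bulk tissue, fewer cells of a type and less RNA per cell cannot be told apart. The part of these shifts in the proteasome values was not tested.

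The immunoproteasome genes are known to respond to interferon, so other interferon genes were taken beside them. Of 20 interferon and antigen presentation genes, 2 were higher in SCA1 and 5 in SCA1 S776A mice at an unadjusted p under 0.05, against 3.93% and 1.98% of all genes. Of these 20, 0 were called, against 0.387% and 0.0222% of all genes. Their summed level was 298 to 350 CPM in SCA1 mice (median 304) and 307 to 325 CPM in WT of batch 1 (median 311). Bst2, an antiviral membrane protein of this list, was at 3.41, 3.57, 3.29 and 6.11 CPM in SCA1 mice and at 2.01, 1.96, 2.42 and 3.53 CPM in WT. SCA1 mouse 4 was highest for Bst2 and also for Psmb8 (0.949 CPM) and Psmb9 (0.989 CPM). Psmb10, the most abundant of the 3, was at 14.9, 14.5, 16.0 and 16.3 CPM in SCA1 mice and at 14.3, 13.8, 15.6 and 14.5 CPM in WT, with a log2 fold change of 0.08 ± 0.08. The share of Psmb8 in Psmb5 was 1.19 ± 0.367% in SCA1, 1.18 ± 0.212% in SCA1 S776A, and 0.898 ± 0.187% in S776A double mice, beside 1.01 ± 0.22% in WT of batch 1 (SD, n = 4 each). It was 1.1 ± 0.13% in homozygous mice, beside 1.04 ± 0.114% in WT of batch 2. Each range over mice overlapped that of WT of its own batch.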

How the data were processed

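RNA of 24 cerebella was extracted with miRNeasy kits and sequenced as paired ends of 150 bp on an Illumina HiSeq. Per the labels and the study's methods, reads were trimmed with Trimmomatic 0.36 and aligned with STAR 2.7.2d to GRCm38.p6. The authors deposited raw counts per gene, with columns for either strand. The unstranded counts were used, since the strand columns were equal (ratio 0.9995 to 1.0035), so antisense genes cannot be told apart. Of 54232 gene rows, 54165 matched GENCODE M21 and 67 did not. Per the study's methods, the authors corrected the counts for sequencing batch with ComBat-seq and then tested them with DESeq2 1.28.1.

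Counts were filtered with filterByExpr, which left 22502 genes, and scaled by TMM (factors 0.944 to 1.056). All 24 mice were fitted together with genotype and batch in edgeR 4.0.16 (R 4.3.3, robust quasi-likelihood). Batches were inferred by k-means with k = 2 on 4 STAR summary shares. Alternatives used DESeq2 1.42.0, sva 3.50.0 (ComBat-seq), RLE size factors and other filters. They also used the strand columns, 1 batch at a time and leaving out each mouse. Log2 CPM used a prior count of 2. The fit was tested on simulated counts. The libraries held a median of 74852158.5 fragments on genes.

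Members and lists were chosen with earlier results of these data known. Named were the 6 catalytic genes, members called in any comparison of genotypes, the 3 lowest p per comparison with WT, the highest and lowest level, the called or lowest-p gene of each partner list, and Nfe2l1, Pomp, Psme1, Psme2, Ubqln4, Ubb and Atxn1. A listed gene and 1 feature of the count tables are not reported here. Other names were chosen after their values were seen. Each library is 1 mouse, numbered in accession order, so p-values set a difference against the spread between mice. That spread was estimated over the mice of all groups, so mice outside a comparison also bear on its p-values. In SCA1 against WT, 87 genes were called in the joint fit, 240 without homozygous mouse 4 and 334 in batch 1 alone. Leaving out any other 1 mouse outside that comparison gave between 78 and 113.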

Additional observations from a re-analysis of the deposited data

Results flagged for a closer look

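Among 228 groups of 4 mice, 1 mouse stood apart from the other 3 in 15 by Dixon's criterion at the 95% level, which chance alone gives for about 5% of groups. Of the proteasome members, Psmb8 was at 0.896 CPM in WT mouse 7 (others 0.758 to 0.773), Psmb10 at 17.8 CPM in WT mouse 6 (16.1 to 16.4), Psmd8 at 105 CPM in WT mouse 1 (93.4 to 94.4) and Psmc3 at 159 CPM in WT mouse 8 (175 to 176). Psmc6 was at 92.4 CPM in SCA1 S776A mouse 1 (96.0 to 96.7), and Psmc5 at 200 CPM in SCA1 mouse 4 (181 to 183).

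Among the other named genes and markers, Bst2 was at 6.11 CPM, Cx3cr1 at 12.4 CPM and Pecam1 at 14.9 CPM in SCA1 mouse 4, and Hopx at 86.7 CPM in SCA1 mouse 3. In WT mice of batch 1, Gclm was at 99.5 CPM in mouse 2, Gad1 at 651 CPM in mouse 1 and Ubqln4 at 103 CPM in mouse 4. In WT mouse 6 of batch 2, Ube3a was at 93.3 CPM. Kcnj13, a choroid plexus marker, was at 0.393 CPM in SCA1 S776A mouse 1 (others 2.78 to 3.96).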

How the results depend on the processing

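No paired analysis was possible because the labels give the mice no replicate numbers shared between groups. Over 33 other fits, the count of members called stayed at 0 in each comparison of genotypes, except in homozygous mice, where 24 were called without batch in the model (4368 genes in all) and 1 (Psmc6, log2 fold change 0.28, adjusted p = 0.0436) with ComBat-seq then DESeq2 (401 genes in all). The counts at an unadjusted p under 0.05 were unstable when a mouse was left out, from 0 to 2 in SCA1, 0 to 5 in S776A double and 0 to 17 in homozygous mice. Against the mean of all 8 WT mice the scores turned to -0.0705 in SCA1, -0.114 in SCA1 S776A and -0.0888 in S776A double mice. Leaving out 1 mouse kept the SCA1 score between 0.0604 and 0.082, and moved it from -0.0061 to 0.0449 in SCA1 S776A, 0.0243 to 0.0781 in S776A double and 0.0203 to 0.1418 in homozygous mice.

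In WT of batch 1, Psmb8 as a share of Psmb5 was 2.66% in strand column 3, 2.78% with both strand columns summed and 0.484% with the length of all exons. Psmb9 as a share of Psmb6 was 0.705% and 0.683% in the first 2 of these, and Psmb10 as a share of Psmb7 was 11%, 10.9% and 44.8%. The summed columns and the length of all exons were chosen after seeing the data. Psme1 in SCA1 mice kept an adjusted p under 0.05 in 22 of 33 other fits, by edgeR or DESeq2, the lowest being 2.04e-05. The edgeR adjusted p was 0.701 without batch (log2 fold change 0.08), 0.0536 without the low-count filter and 0.0745 in strand column 4. The other losses came on leaving out a mouse. Of 4876 values of 37 named genes, 4774 kept their call, 34 were newly called and 11 lost their call (Psme1). A further 57 uncalled ones turned sign by more than 1 SE, and 0 called values turned sign. The 4774 include uncalled values that turned sign by 1 SE or less. Labels carry no batch, 1 mouse decides the homozygous estimates, and Psmb8 and Psmb9 rest on fewer than 100 counts per library, so differences in them below their intervals were not detectable at this depth.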
